A study of Mus with 6 samples.

Results

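Yap1 and Wwtr1 (the gene of the protein TAZ, with the older symbol Taz) were examined with a DNA-binding partner, Tead1. With them were taken 5 genes known as targets of the complex, Ccn1 (Cyr61), Ccn2 (Ctgf), Ankrd1, Axl and Amotl2. These 8 genes were taken by their Ensembl IDs from the 15646 genes of the count table. All 8 were present, and all 8 passed the filter on low counts, which left 14348 genes. Total RNA depleted of ribosomal RNA was sequenced from orthotopic tumors of KPC1199, a mouse pancreatic ductal adenocarcinoma line implanted in the pancreas. The hosts of 3 libraries were genetically obese (ob/ob) mice, in which a mutation of the leptin gene removes the hormone that limits feeding, and those of the other 3 were lean wild-type mice. Every tumor in both groups came from the same implanted line, and the groups are named here by host. Any other difference that runs along with the groups, such as a batch, cannot be told apart from host. The labels used here state neither age, sex nor host strain, nor whether each library came from its own mouse, and p-values therefore measure the spread between these libraries, which may in part be technical. Names of libraries follow their titles, lean 1, 2 and 3 and obese 1, 3 and 4.

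YAP and TAZ are transcriptional coactivators at the end of the Hippo pathway. Its kinases phosphorylate them and hold them in the cytoplasm, and when this brake is released, for instance on a stiff matrix or under tension in the cytoskeleton, they enter the nucleus and bind TEAD factors at their target genes. This control acts largely on the proteins, so transcript levels of Yap1 and Wwtr1 are not a measure of their activity, and the target genes are commonly read in its place. In pancreatic cancer YAP is known for its part in tumor growth, and CCN2 for its part in the fibrous stroma.

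Of the 8 genes, 3 were lower in tumors of obese mice and 0 were higher (edgeR quasi-likelihood test, with p-values adjusted by Benjamini-Hochberg over the whole table; a gene is called where this adjusted p is under 0.05). The 3 that fell, Ccn2, Ccn1 and Amotl2, were all among the 5 targets. Over all 14348 genes tested, 20.8% were called, 10.6% lower and 10.3% higher. The fitted log2 fold change (obese minus lean) was below 0 for 7 of the 8 genes and for 5 of the 5 targets, against 49.1% of all genes. Its median was -0.35 over the 8 genes and -0.60 over the 5 targets, against 0.01 over all genes tested. The sign of 2 targets leaned on the library obese 3. Without it Axl was at 0.02 and Ankrd1 at -0.05, whereas Ccn2, Ccn1 and Amotl2 were at -1.93, -0.78 and -0.52. The targets answer to other pathways as well, and the genes were chosen with earlier results of these data known, so these counts describe the genes and are not a test of the pathway. At an unadjusted p under 0.05, 4 of the 8 would have been counted as lower and 0 as higher, against 18.0% and 18.2% of all genes tested. DESeq2 also called 3 lower and 0 higher, against 11.0% and 10.6% of all genes. The counts by limma-voom were the same, 3 and 0, against 10.7% and 10.2%.

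**Figure D1:**
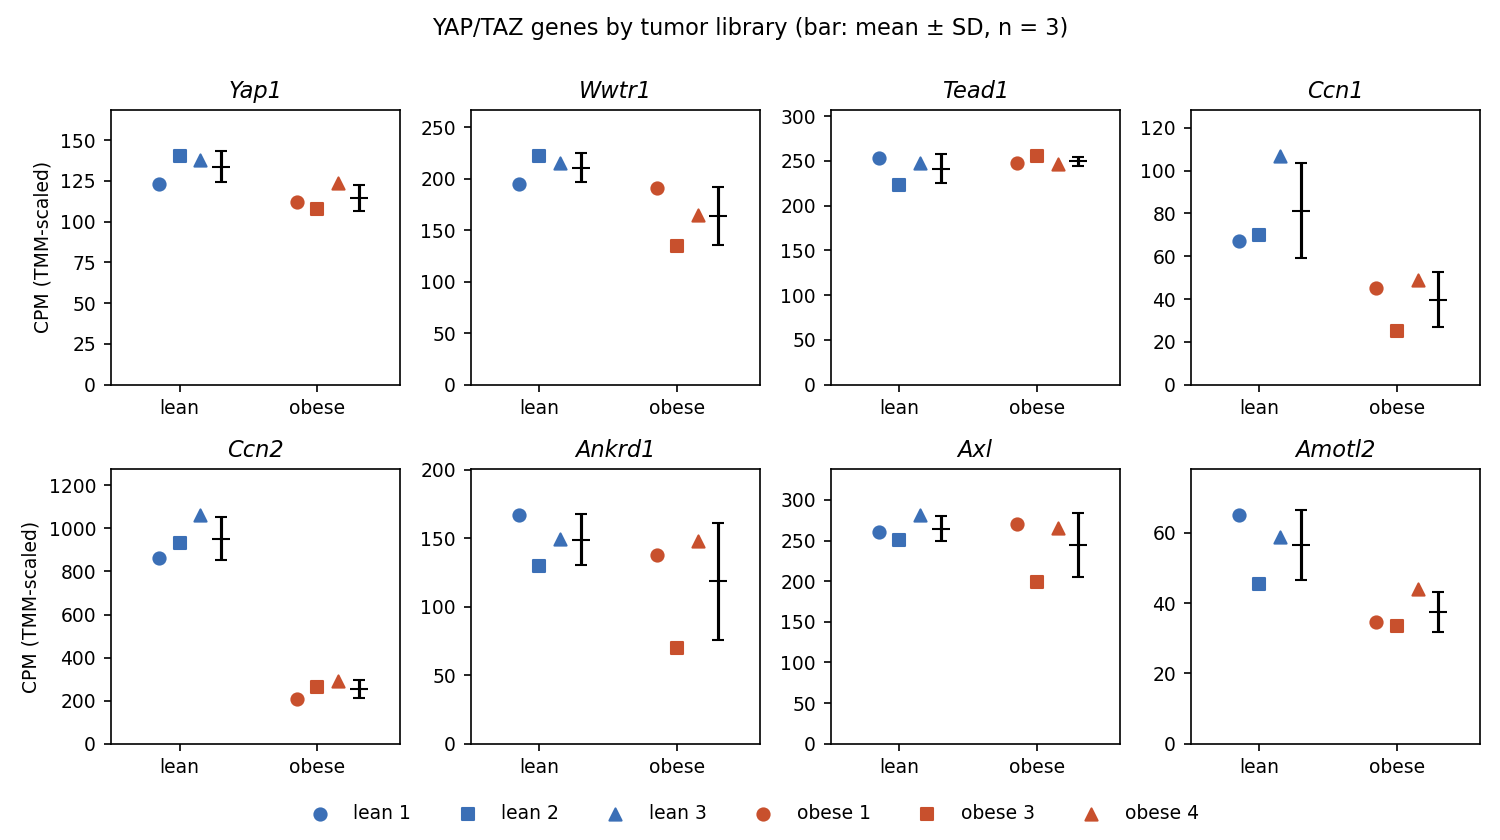
Counts scaled to library size (CPM, with TMM factors, linear axis from 0) of the 8 genes in each of the 3 lean (blue) and 3 obese (orange) libraries, with the mean and SD of each group in black. Ccn2 lies at 864 to 1062 CPM in the lean and at 210 to 289 CPM in the obese libraries, whereas the groups overlap for Yap1, Tead1, Ankrd1 and Axl.

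Ccn2 encodes connective tissue growth factor, a secreted matricellular protein that promotes fibrosis. The gene, ENSMUSG00000019997, lies on chromosome 10 from 24595442 to 24598683 (RefSeq, GRCm38.p6). Its level was 864 CPM in lean 1, 933 in lean 2 and 1062 in lean 3, and 210 CPM in obese 1, 263 in obese 3 and 289 in obese 4. Every obese library was thus far below every lean one. The group means were 953 ± 100.2 CPM in lean and 254 ± 40.5 CPM in obese hosts (SD, n = 3 each), and the fitted fold change was 3.75-fold lower (95% interval 3.06 to 4.61; log2 -1.91, SE 0.13, edgeR adjusted p = 0.000105). By raw p-value this was rank 2 among the 14348 genes tested. Of the 158 genes with a mean CPM at least as high as that of Ccn2, none had a lower fitted log2 fold change, and 103 genes of any abundance, Ccn2 included, were at or below it. Without 1 library at a time the log2 fold change stayed between -2.02 and -1.79, and it also passed a test against a change of 1.5-fold (edgeR adjusted p = 0.000487). In RefSeq a long noncoding RNA gene, Gm15270, overlaps 362 bases of the Ccn2 span. The strand setting of the counting is not given, and how reads in that stretch were assigned was not tested.

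**Figure D2:**
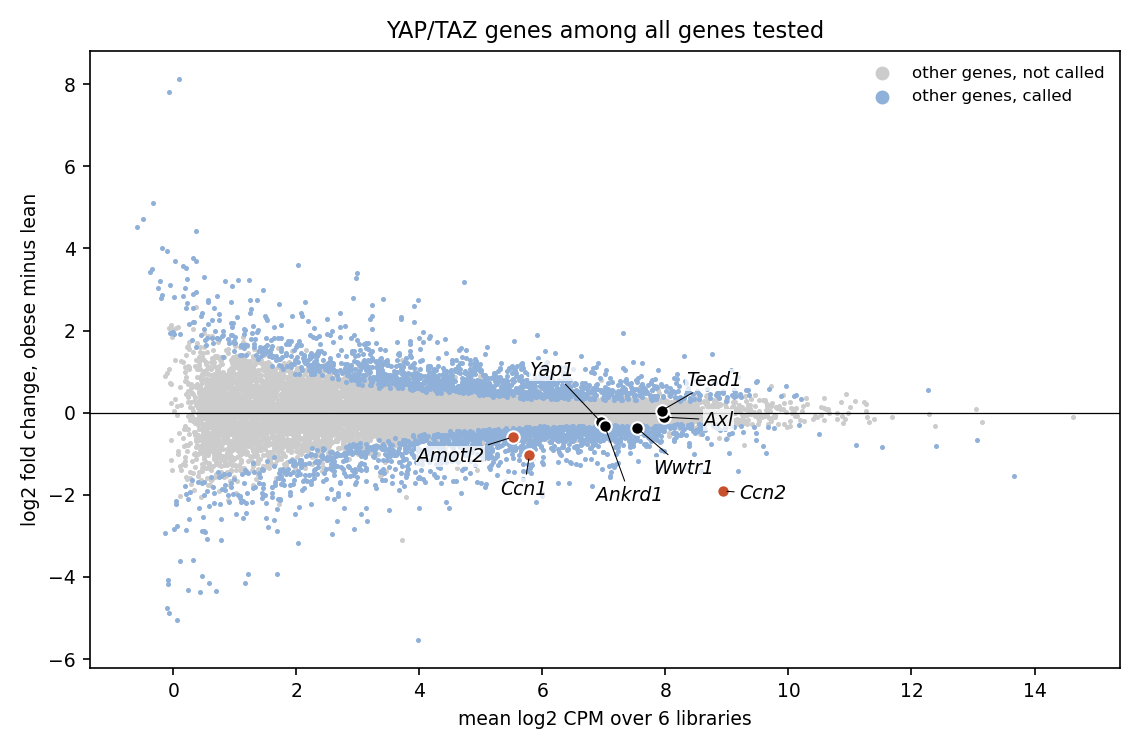
Fitted log2 fold change (obese minus lean) against mean log2 CPM over the 6 libraries for all 14348 genes tested, with called genes in blue, the called YAP/TAZ genes in orange and the other YAP/TAZ genes in black. Ccn2 stands at -1.91 at the abundant end of the plot, and the other 7 genes lie between -1.03 and 0.05.

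Ccn1 encodes CYR61, the close relative of CCN2 that is also secreted into the matrix and binds integrins. The gene, ENSMUSG00000028195, lies on chromosome 3 from 145646971 to 145649985. It was measured at 67.0 CPM in lean 1, 70.1 in lean 2 and 107 in lean 3, and at 45.4 CPM in obese 1, 25.2 in obese 3 and 48.8 in obese 4. The groups did not overlap, but lean 3 was high and obese 3 low within their groups. Ccn1 fell from 81.3 ± 22.2 to 39.8 ± 12.7 CPM (SD, n = 3 each), which was 2.04-fold (95% interval 1.41 to 2.96; log2 -1.03, SE 0.24, edgeR adjusted p = 0.0153). Without lean 3 the call was lost (log2 -0.79, adjusted p = 0.0659), and without obese 3 it held at -0.78 (adjusted p = 0.0154). It did not pass the test against a change of 1.5-fold (edgeR adjusted p = 0.228). The spread of Ccn1 between libraries was 27.3% of the mean in lean and 32.0% in obese tumors, larger than the 3.96% and 5.49% that counting error alone gives.

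Amotl2 encodes angiomotin-like 2, a scaffold at cell junctions that binds YAP and holds it back, and it is itself a YAP target. The gene, ENSMUSG00000032531, lies on chromosome 9 from 102717091 to 102733418. Its levels were 65.1, 45.4 and 58.9 CPM in lean 1, 2 and 3, and 34.7, 33.5 and 44.0 CPM in obese 1, 3 and 4. The groups were separate, though by little between lean 2 and obese 4. Amotl2 fell from 56.5 ± 10.04 to 37.4 ± 5.76 CPM (SD, n = 3 each), 1.51-fold (95% interval 1.18 to 1.93; log2 -0.60, SE 0.16, edgeR adjusted p = 0.0266). This call depended on single libraries. It was lost without lean 1 (log2 -0.48, adjusted p = 0.0822), without lean 3 (-0.56, adjusted p = 0.0849), without obese 1 (-0.54, adjusted p = 0.0913) and without obese 3 (-0.52, adjusted p = 0.0544).

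The other targets, Ankrd1 and Axl, did not pass the test. Ankrd1, a gene for an ankyrin-repeat protein of the nucleus and the sarcomere that is known as a sensitive YAP target, is ENSMUSG00000024803 and lies on chromosome 19 from 36111965 to 36119844. Its levels were 167, 130 and 150 CPM in lean 1, 2 and 3, and 138, 69.6 and 148 CPM in obese 1, 3 and 4. The obese libraries 1 and 4 lay within the lean range, and obese 3 was far below all others. The fitted log2 fold change of -0.33 (95% interval -0.83 to 0.17, edgeR adjusted p = 0.326) rested on that library, since it was -0.05 without obese 3 (adjusted p = 0.806). Axl, a receptor tyrosine kinase of the TAM family bound by GAS6, is ENSMUSG00000002602 and lies on chromosome 7 from 25756500 to 25788924. It stood at 260, 251 and 281 CPM in lean 1, 2 and 3, and at 270, 199 and 265 CPM in obese 1, 3 and 4. Again only obese 3 was outside the lean range. The log2 fold change of Axl was -0.11 (95% interval -0.38 to 0.16, edgeR adjusted p = 0.557), and it was 0.02 without obese 3.

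Neither coactivator passed the test. Yap1 (ENSMUSG00000053110), on chromosome 9 from 7931999 to 8004638, stood at 123, 140 and 138 CPM in lean 1, 2 and 3, and at 112, 108 and 123 CPM in obese 1, 3 and 4. The only overlap was between lean 1 and obese 4, which were nearly level. Its log2 fold change was -0.22 (SE 0.10, 95% interval -0.45 to 0.0043, edgeR adjusted p = 0.145), so a fall of more than 1.37-fold lies outside the interval.

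Wwtr1 (ENSMUSG00000027803), on chromosome 3 from 57455644 to 57575910, stood at 195, 222 and 216 CPM in lean 1, 2 and 3, and at 191, 135 and 165 CPM in obese 1, 3 and 4. The groups did not overlap, by a narrow margin between lean 1 and obese 1. A separation of this kind, with all obese libraries below all lean ones, was found for 4 of the 8 YAP/TAZ genes, these being Wwtr1 and the 3 called targets, and for 20.0% of all genes tested. The opposite separation was found for 0 of the 8 and for 20.3% of all genes, which makes 40.3% in either direction. The log2 fold change of Wwtr1 was -0.37 (SE 0.13, 95% interval -0.65 to -0.08, edgeR adjusted p = 0.0645) and missed the threshold, which it passed without obese 1 (-0.49, adjusted p = 0.0414). In RefSeq a transcribed pseudogene, Gm16016, overlaps 2520 bases of the Wwtr1 span, and how reads there were assigned was not tested.

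Tead1, which encodes a TEAD factor that brings YAP and TAZ to DNA, is ENSMUSG00000055320 and lies on chromosome 7 from 112679356 to 112906784. The other TEAD genes were not analysed here. It was measured at 253, 223 and 248 CPM in lean 1, 2 and 3, and at 247, 255 and 246 CPM in obese 1, 3 and 4. The obese libraries spanned less than the lean ones and lay almost within their range. The log2 fold change was 0.05 (95% interval -0.16 to 0.25, edgeR adjusted p = 0.739), which corresponds to a fold of 0.898 to 1.19. Its sign turned without lean 2 (log2 -0.0070).

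**Figure D3:**
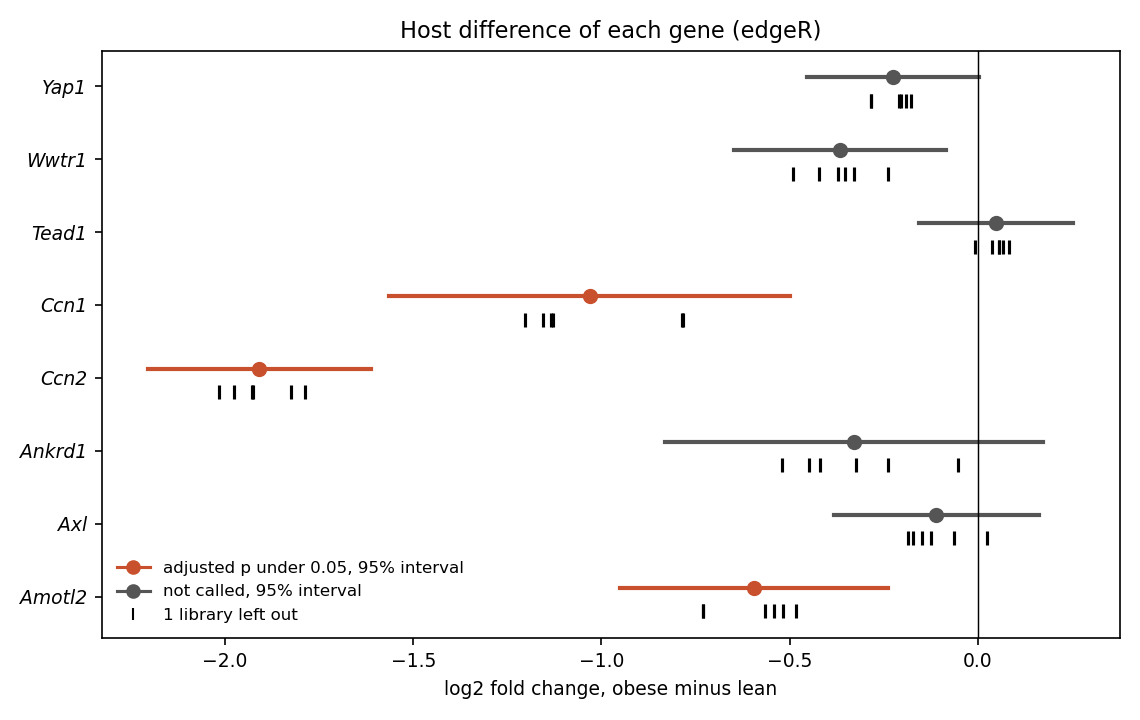
Fitted log2 fold change (obese minus lean) of each gene with its 95% interval, orange where called and grey where not, and black ticks for the 6 fits that each leave out 1 library. The interval of Ccn2, -2.20 to -1.61, lies below those of all other genes, the nearest being Ccn1 with -1.56 to -0.50.

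Ccn2 was therefore set against each of the other 7 genes within each library, and Wwtr1 against Yap1, as log2 ratios of counts. These ratios are not corrected for transcript length and are compared between groups only. The choice of Ccn2 was made after its values were seen. Its ratios to the other 7 genes all share the same Ccn2 counts and are not independent. Their separation largely repeats the fall of Ccn2, so the p-values below describe the ratios and are no further evidence. The Ccn2 to Tead1 ratio was 1.77, 2.07 and 2.10 in lean 1, 2 and 3, and -0.24, 0.04 and 0.23 in obese 1, 3 and 4. It was lower in obese hosts by a log2 difference of -1.97. The corresponding differences were -1.69 for Ccn2 to Yap1 and -1.54 for Ccn2 to Wwtr1. Among the targets they were -1.79 for Axl, -1.52 for Ankrd1 and -1.33 for Amotl2. In these 6 ratios every obese library was below every lean one, which gives an exact two-sided permutation p = 0.1, the smallest that 3 against 3 libraries allow, and 0.133 after Benjamini-Hochberg adjustment over the 8 ratios.

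The ratio of Ccn2 to its relative Ccn1 behaved less uniformly. It was 3.69, 3.73 and 3.31 in lean 1, 2 and 3, and 2.21, 3.38 and 2.57 in obese 1, 3 and 4. Obese 3, where Ccn1 was lowest, lay within the lean range, and the difference of -0.86 gave an exact permutation p = 0.2 (adjusted 0.229). The ratio of Wwtr1 to Yap1 was 0.67, 0.66 and 0.64 in lean 1, 2 and 3, and 0.77, 0.33 and 0.42 in obese 1, 3 and 4. It was close to constant over the lean tumors and spread over the obese ones, with obese 1 above and obese 3 and 4 below the lean range. The difference of -0.15 gave an exact permutation p = 0.4 (adjusted 0.4).

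**Figure D4:**
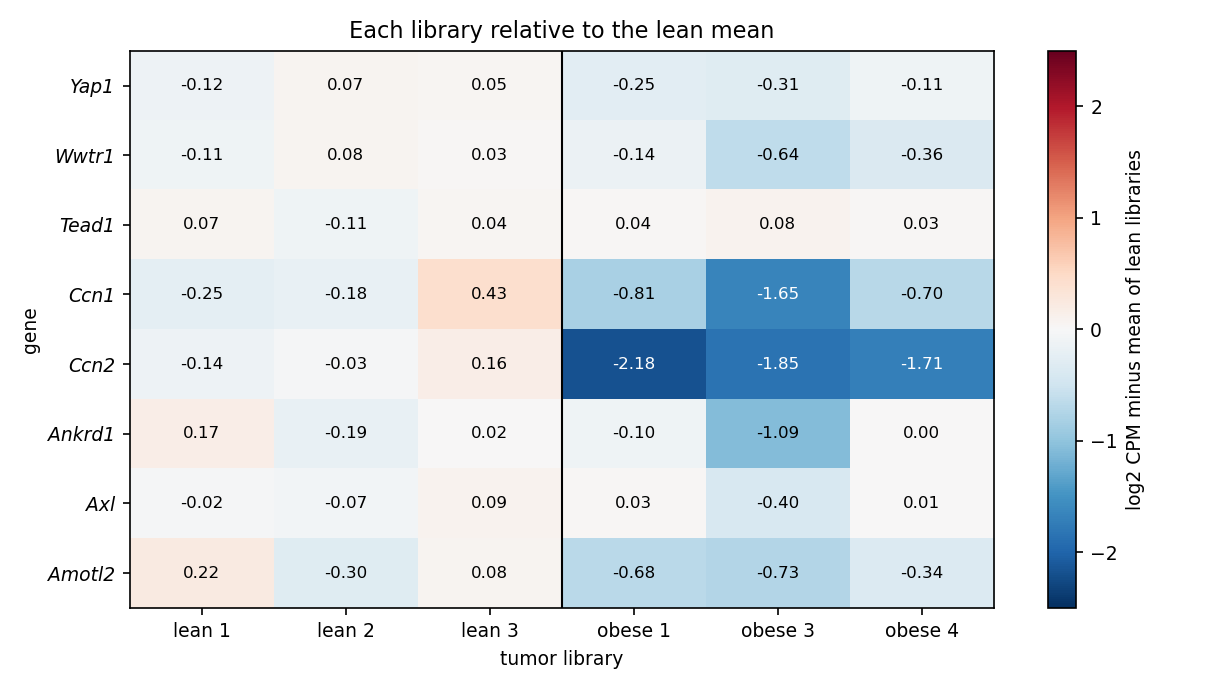
Log2 CPM of each gene in each library minus the mean of the 3 lean libraries, in blue where lower and red where higher. Ccn2 is at -2.18 to -1.71 in the obese libraries, and in obese 3 Ccn1, Ankrd1, Wwtr1 and Axl are lower than in the other obese libraries.

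The obese libraries did not rank alike for all targets. Obese 3 had the lowest obese level for 6 of the 8 genes, with a median deviation from the obese mean of -0.20 on the log2 scale. The exceptions were Tead1, for which it was the highest, and Ccn2, for which obese 1 was the lowest. Yap1, Wwtr1, Ccn1, Ankrd1, Axl and Amotl2 were thus all lowest in obese 3. Every obese library was below every lean one for Ccn2, and also for Ccn1, Wwtr1 and Amotl2. The margin was narrow for Wwtr1 and Amotl2, and 20.0% of all genes tested were separated in this way. The similarity of profiles was measured as the root-mean-square difference of log2 CPM, centred on each gene's mean, over the 6 libraries. Of the 28 pairs among the 8 genes, Yap1 and Axl (0.14) and Yap1 and Wwtr1 (0.16) were the most alike, and Tead1 and Ccn2 (0.998) the least. Ccn2 was nearest to Ccn1, at 0.57. This measure depends on the size of the changes as well as on their shape. Small distances were common, as 3750 other genes of the 14348 tested lay within 0.2 of Yap1 and 2780 within 0.2 of Axl. The likeness of these pairs is therefore not particular to the 8 genes.

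The libraries held 7122533 to 8521244 counts, and each of the 8 genes had at least 206 counts in every library. The TMM factors lay between 0.959 (lean 3) and 1.05 (obese 3). With total counts as the only scale, Ccn2, Ccn1 and Amotl2 were again the genes called (Ccn2 log2 -1.85). The samples are whole tumors in which implanted cells and host cells are mixed, and fewer cells that express a gene cannot be told apart from less RNA per cell. Symbols could be attached to the 8 genes only. Levels of tumor, fibroblast, endothelial, muscle and other cell markers, of the remaining Hippo genes and of leptin as a check on the host labels were therefore not analysed here, and their part in these results was not tested.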

How the data were processed

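The values are raw gene counts in a single table that the authors deposited, not normalized. The tools named in the submitters' processing notes are CASAVA, STAR and Subread, and the build is GRCm38. The notes as used here give no version, setting, annotation release or strand mode. Each column carried 1 sample's title, and 0 were left unmapped. Titles starting with OB were taken as obese and, from the 2 kinds of mice in the design text, those starting with ND as lean.

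The 8 genes were found by Ensembl ID. Their symbols came with the choice of genes, and positions were taken by symbol from the RefSeq gene table of GRCm38.p6. Of its 49997 rows 0 carry an Ensembl ID, so the 162 symbols of the pathway and cell marker lists could not be looked up. The genes and lists were chosen with earlier results of these data known. The rule took all 8 genes by name, and the 2 genes most similar to each of Yap1, Wwtr1, Ccn1 and Ccn2. Those most similar to Ccn2 are given by ID and the others are left out, because at most 2 IDs without a symbol are printed per direction.

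Testing was done in R 4.3.3 with edgeR 4.0.16 (expression filter with minimum count 10 and minimum total 15, TMM factors, two-sided quasi-likelihood F test over all genes tested, no covariates). The SE is the log2 fold change divided by the square root of F, and the 95% intervals use it with the test's degrees of freedom. CPM values were scaled by TMM factors, and log2 CPM used a prior count of 2. The code was tested on simulated data. Alternatives were other scaling factors, other filters, limma-voom from limma 3.58.1, DESeq2 1.42.0, robust dispersions, a replicate block, each library left out and, added after seeing the data, a test against a 1.5-fold change.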

Additional observations from a re-analysis of the deposited data

How the results depend on the processing

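Under the other scalings, filters and tests, the count of YAP/TAZ genes lower in obese hosts stayed at 3 except with the replicate block, where it was 4, and that of higher genes was 0 throughout. Over all genes these fits, apart from the block, called 2903 (no filter) to 3099 (DESeq2). With 1 library left out, 1 to 3 genes were lower (1 without lean 3), and over all genes 1179 (without lean 2) to 3066 (without obese 3) were called, against 2991 with all libraries. Against a 1.5-fold change, chosen after seeing the data, 1 of the 8 and 213 of all genes passed. With 1 library left out, the log2 fold change of Axl ranged from -0.19 to 0.024 (above 0 without obese 3) and that of Tead1 from -0.0070 (below 0 without lean 2) to 0.083. In each case the cause was not tested. Ccn2 was called in all 16 alternatives, Ccn1 in 14 and Amotl2 in 11. Lean and obese titles share the numbers 1 and 3. Deviations of like-numbered libraries correlated at 0.090 and 0.074, against -0.131 to 0.066 for unlike numbers. With so few libraries these values cannot settle whether like numbers mark pairs. The labels used here do not state a pairing, so the numbers were not taken as pairs. The replicate block gave 2087 genes, with Ankrd1 called (log2 -0.68, edgeR adjusted p = 0.0117). In that fit the host difference rests on lean 1 and 3 against obese 1 and 3. The numbers of lean 2 and obese 4 occur in 1 group only, so these libraries do not bear on it. Obese 4, where Ankrd1 stood at 148 CPM and within the lean range, is thus left out of that value. The lists of other Hippo genes and targets were not run, as their symbols could not be looked up. Depth allowed counting errors of 1.16% to 5.66% of the mean per library for the 8 genes, below the spread between libraries in all but Tead1 in obese tumors.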

Other observations

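Profiles like that of Yap1 were common and profiles like that of Ccn2 were rare. Within a root-mean-square difference of 0.2 in centred log2 CPM over the 6 libraries lay 3750 other genes for Yap1, 4361 for Tead1, 2780 for Axl and 1722 for Wwtr1. The corresponding numbers were 257 for Amotl2, 48 for Ankrd1, 8 for Ccn1 and 8 for Ccn2. Genes that hardly differ between libraries are many, so these numbers follow in part from the size of each gene's change.

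The gene closest to Ccn2 by this measure, at 0.08, was ENSMUSG00000061878.16. Its mean was 50.0 ± 6.39 CPM in lean tumors, and it fell to 12.9 ± 1.34 CPM in obese ones (SD, n = 3 each; log2 fold change -1.96, edgeR adjusted p = 0.000211). The next, ENSMUSG00000071637.5 at 0.13, fell from 24.3 ± 3.36 to 6.55 ± 1.58 CPM (SD, n = 3 each; log2 fold change -1.89, edgeR adjusted p = 0.00114). Both were chosen for their likeness to Ccn2, so their direction is no further evidence.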
